A study of Mus musculus with 6 samples.

Results

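The genes described here are 32 targets of the transcription factor NRF2 and enzymes of antioxidant defence, as RNA sequencing measured them in sorted macrophages of mouse mammary tumours. They were chosen by name, and each name matched 1 row of a table of 35275 genes. The macrophages were taken by flow cytometry as CD11b+ F4/80+ Ly6G- Ly6C- cells from tumours that arose in MMTV-PyMT females, aged 65 days and FVB/NJ in strain, in which a mammary tumour virus promoter drives the polyoma middle T oncogene in mammary epithelium. The group labelled Atg5 KO held 3 mice with Atg5flox/flox alleles and LysMcre, a Cre recombinase placed in the Lyz2 gene and active in macrophages and other myeloid cells such as neutrophils. The group labelled Atg5 WT held 3 mice with the same Atg5flox/flox alleles and no Cre in their labels. Each library carried the number of 1 mouse. The comparison asks how the expression of macrophages in a tumour differs when Atg5, a gene needed to build autophagosomes, is targeted in myeloid cells.

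NRF2, encoded by Nfe2l2, is held in the cytosol and marked for degradation by KEAP1, whose reactive cysteines sense oxidants and electrophiles. NRF2 that escapes KEAP1 pairs with small MAF proteins and binds antioxidant response elements in genes for glutathione synthesis, the thioredoxin system, NADPH supply and detoxification. The autophagy receptor p62, encoded by Sqstm1, binds KEAP1 and is itself degraded by autophagy, which joins both pathways at the level of protein. In macrophages these enzymes handle the oxidants that the cells make themselves during phagocytosis. Much of the control of NRF2 acts on the protein, which RNA sequencing does not measure.

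Recovered reads numbered between 18770262 and 21173301 per library, and 12332 genes with a mean FPKM (reads scaled to gene length and to the library total) of at least 1 were tested. Atg5 at the level of the whole gene went against the label, at FPKM values of 14.0, 16.6 and 17.4 in the libraries labelled Atg5 KO, against 5.15, 5.11 and 5.28 in those labelled Atg5 WT. Its log2 difference of 1.45 did not pass over the 6 libraries (adjusted p = 0.103 by limma-trend) and did pass, as higher with the Atg5 KO label, without Atg5 WT replicate 2 (adjusted p = 0.0472 by limma-trend). Since the value covers all exons, it does not isolate a deleted part. Lyz2, at the Cre locus, went with the label, at 8.43, 11.8 and 16.1 in the libraries labelled Atg5 KO, against 4707, 2060.4 and 6571 in those labelled Atg5 WT. Directions below follow the labels. Macrophage markers were high in every library, with complement gene C1qa at 3502, 3544 and 4495 in the libraries labelled Atg5 KO, against 2506, 899.7 and 3648 in those labelled Atg5 WT. The sorted antigens were expressed, with F4/80 (Emr1 in the table) at a mean FPKM of 221 ± 33.0 in the libraries labelled Atg5 KO and 134 ± 80.3 in those labelled Atg5 WT, and CD11b (Itgam) at 163 ± 21.6 in the libraries labelled Atg5 KO and 117 ± 61.3 in those labelled Atg5 WT, while Ly6g, the neutrophil antigen excluded by the sort, had a mean FPKM of 0.103 ± 0.178 in the libraries labelled Atg5 KO and 0.0367 ± 0.0636 in those labelled Atg5 WT. Other neutrophil transcripts were present. The summed FPKM of 10 neutrophil markers, Ly6g among them, ran from 119.5 to 280.4 in the libraries labelled Atg5 KO and from 143.9 to 802.2 in those labelled Atg5 WT. S100a8 stood at 38.8, 11.8 and 12.7 in the libraries labelled Atg5 KO, against 42.7, 169.7 and 14.4 in those labelled Atg5 WT. Transcripts of mammary epithelium and tumour cells were also present in every library. The summed FPKM of 23 such markers ran from 1017 to 4151 in the libraries labelled Atg5 KO and from 1096 to 11492 in those labelled Atg5 WT, and none of the 23 was at 0 throughout. Their mean log2(FPKM + 1), called the tumour-cell score here, was 5.60, 4.15 and 3.66 in the libraries labelled Atg5 KO, against 6.16, 7.10 and 4.01 in those labelled Atg5 WT. In bulk RNA, fewer cells of a type and less RNA per cell cannot be told apart.

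All 32 genes passed the filter, and none of them passed the test over all genes. Their smallest adjusted p was 0.492 (limma-trend with Benjamini-Hochberg adjustment), and the call rate over all genes tested was 0.00811%, which is 1 gene, Lyz2. Without Atg5 WT replicate 2 the fit called 2 genes, Atg5 among them, higher and 16 lower with the Atg5 KO label, and 0 of them were among the 32. At an unadjusted p under 0.05 the limma-trend fit on all 6 libraries gave 3 of the 32 with a positive difference (G6pdx, Prdx5 and Gpx1). It gave 1 with a negative difference (Prdx6). The shares over all genes tested were 4.84% and 5.17%. A limma-voom fit on the recovered reads also called 0 of the 32, with 4 at an unadjusted p under 0.05. The 3 values of the libraries labelled Atg5 KO lay wholly above those labelled Atg5 WT for 6 genes (G6pdx, Prdx5, Gpx1, Esd, Taldo1 and Txnrd2) and wholly below for 1 (Prdx6), or 18.8% and 3.12% of the 32, against 9.20% and 9.41% of all genes tested. Leaving out 1 library could only keep or raise those counts of the 32. Without the library labelled Atg5 KO replicate 2 they were 11 and 2, where all genes tested gave 14.8% and 14.9%. Without the library labelled Atg5 WT replicate 3 they were 9 and 9, where all genes tested gave 17.5% and 38.7%. The differences of the 32 genes ran from -1.06 for Gsta4 to 0.57 for G6pdx on the log2(FPKM + 1) scale, as KO label minus WT label. Their median was -0.029, beside -0.092 for all genes tested, with 15 positive and 17 negative, or 46.9% and 53.1% of the 32 where all genes tested gave 37.2% and 62.8%. The split moved to 20 and 12 under median-ratio scaling of the libraries, where Nfe2l2, Srxn1, Gsr, Sod1 and Sod2 changed sign, and to 17 and 15 under quantile normalization, where Gclc and Gsr did.

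**Figure D1:**
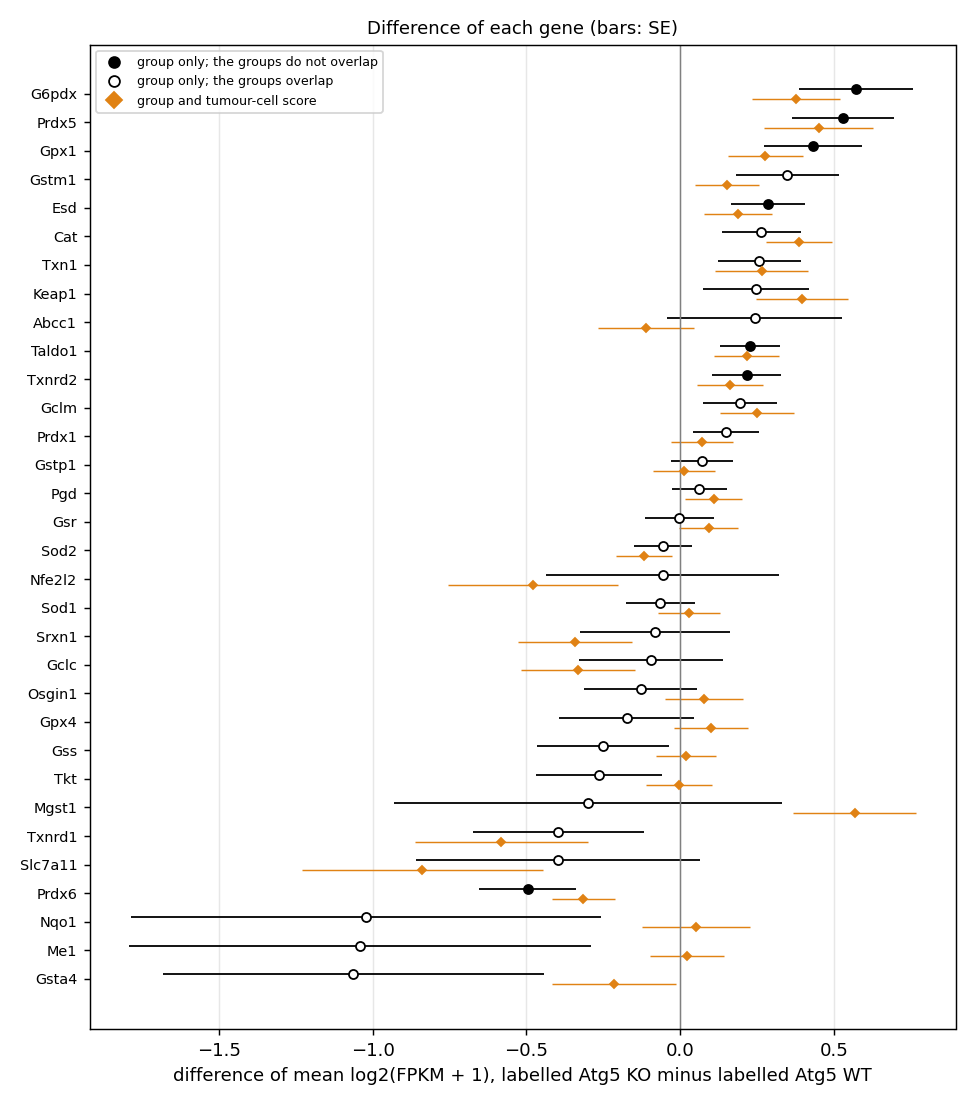
Difference in log2(FPKM + 1), KO label minus WT label, for the 32 genes, with bars for the SE. Circles come from the fit on the group alone, filled where the 3 values of each group do not overlap, and diamonds from the fit that also holds the tumour-cell score. G6pdx and Prdx5 stand at the top with 0.57 and 0.53, and Nqo1, Me1 and Gsta4 at the bottom with -1.02, -1.04 and -1.06, where the diamonds stand at 0.051, 0.023 and -0.21.

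Antioxidant response elements were searched for here by the letters TGACNNNGC on either strand. Windows without these letters were not searched for other forms of the element. RefSeq promoter sequences of build GRCm38.p6, which come from the C57BL/6J strain and not from FVB/NJ, were matched by symbol for 27 of the 32 genes, which leaves Gclc, Gsr, Gsta4, Prdx6 and Abcc1 named only. These windows run from 250 bases before to 50 bases after a transcript start. The letters were present in at least 1 window of 10 of the 27 genes (37.0%), against 14.0% of 27025 genes, and in 10 of 36 windows (27.8%), against 12.4% of 32851 windows of the same length. A match is a string of letters and not a measured binding site. Stretches around 6 matches are printed because their genes differ in how they varied over the libraries. G6pdx had groups that did not overlap, Prdx1 and Gclm varied little, Txnrd1 was highest in the library labelled Atg5 WT replicate 3, and Me1 and Mgst1 were highest in the library labelled Atg5 WT replicate 2. Each runs 5′ to 3′ on the strand of its gene, with the matching letters in capitals.
G6pdx, chrX:74428909-74428957, minus strand: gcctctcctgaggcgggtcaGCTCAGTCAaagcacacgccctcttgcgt
Prdx1, chr4:116685446-116685494, plus strand: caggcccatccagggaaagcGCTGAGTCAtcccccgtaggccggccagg
Gclm, chr3:122245403-122245451, plus strand: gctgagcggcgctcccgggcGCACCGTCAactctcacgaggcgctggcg
Txnrd1, chr10:82859094-82859142, plus strand: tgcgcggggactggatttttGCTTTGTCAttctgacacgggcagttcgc
Me1, chr9:86695912-86695940, minus strand: cggctcggccgatgccgccgTGACTCAGC
Mgst1, chr6:138140451-138140499, plus strand: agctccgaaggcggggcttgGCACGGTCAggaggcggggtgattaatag
The matches of Prdx1 and Me1 also contain TGACTCA or its reverse complement TGAGTCA, the letters bound by AP-1 factors, and those of the other 4 do not. The other genes with a match were Nfe2l2, Srxn1, Pgd and Sod1, so that genes with the letters had positive as well as negative differences.

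At the head of the pathway, Nfe2l2 (chromosome 2, 75675513 to 75704641, mm10), the NRF2 gene, ranked 428 by mean FPKM among the 12332 genes tested, and its FPKM values were 117, 207 and 137 in the libraries labelled Atg5 KO, against 174, 93.9 and 229 in those labelled Atg5 WT. The groups overlapped throughout, since the highest and the lowest library both carried the Atg5 WT label. Its log2 difference came to -0.057 with an SE of 0.38 (adjusted p = 0.946 by limma-trend), and it was 0.0345 under median-ratio scaling. Keap1 (chromosome 9, 21229730 to 21239332, mm10) was measured at 10.49, 7.65 and 10.2 in the libraries labelled Atg5 KO, against 7.67, 9.16 and 6.53 in those labelled Atg5 WT. It was low in the library where Nfe2l2 was highest, the Atg5 WT replicate 3. The difference was 0.25 with an SE of 0.17 (adjusted p = 0.544 by limma-trend).

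Glutathione supply was covered by 5 genes, whose median difference was -0.094, and in each of them the groups overlapped, where 18.6% of all genes tested had groups that did not. Slc7a11 (chromosome 3, 50364936 to 50443613, mm10) encodes the cystine importer that brings in the limiting amino acid, and stood at 2.82, 7.05 and 2.87 in the libraries labelled Atg5 KO, against 6.29, 2.74 and 8.94 in those labelled Atg5 WT. Within each label the libraries split, with 1 high and 2 low libraries labelled Atg5 KO and 2 high and 1 low labelled Atg5 WT. Its log2 difference came to -0.40 with an SE of 0.46 (adjusted p = 0.667 by limma-trend). It was -0.79 without Atg5 WT replicate 2, -0.75 without Atg5 KO replicate 2, -0.21 without Atg5 KO replicate 1, -0.22 without Atg5 KO replicate 3 and -0.086 without Atg5 WT replicate 3. A fit that held the tumour-cell score gave -0.84. Gclc and Gclm encode the catalytic and the modifier subunit of glutamate-cysteine ligase, the rate-limiting enzyme of glutathione synthesis. Gclc had FPKM values of 12.6, 17.02 and 12.4 in the libraries labelled Atg5 KO, against 15.04, 11.03 and 19.6 in those labelled Atg5 WT. Gclm (chromosome 3, 122245557 to 122269984, mm10) had 10.4, 8.0 and 9.30 in the libraries labelled Atg5 KO, against 7.82, 8.09 and 7.75 in those labelled Atg5 WT. Although their products work as a dimer, the 2 transcripts were not highest in the same library: Gclc peaked in Atg5 WT replicate 3, where Gclm was at its lowest, and Gclm peaked in Atg5 KO replicate 1. Their differences were -0.094 with an SE of 0.23 and 0.20 with an SE of 0.12 (adjusted p = 0.843 and 0.532 by limma-trend). Gss, which completes glutathione, averaged 4.48 ± 0.887 in the libraries labelled Atg5 KO and 5.57 ± 1.45 in those labelled Atg5 WT (SD, n = 3 each). Gsr, which returns oxidised glutathione to its reduced form, was the most abundant of the 5 and almost level, at 16.1, 15.8 and 14.1 in the libraries labelled Atg5 KO, against 14.9, 17.1 and 14.2 in those labelled Atg5 WT, with a difference of -0.003 that turned positive under median-ratio and quantile scaling.

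The thioredoxin and peroxiredoxin genes held members on opposite sides. Peroxiredoxin 5, a peroxidase of mitochondria, peroxisomes and cytosol encoded by Prdx5 (chromosome 19, 6906697 to 6910106, mm10), stood at 162, 127 and 181 in the libraries labelled Atg5 KO, against 113, 94.4 and 116 in those labelled Atg5 WT. Every library labelled Atg5 KO was above every library labelled Atg5 WT. Its log2 difference came to 0.53 (SE 0.17) and the mean was 1.46-fold as high with the Atg5 KO label, which did not pass (adjusted p = 0.492 by limma-trend), and the exact permutation p was 0.1, as low as 3 against 3 allow. Peroxiredoxin 6, which also repairs oxidised membrane phospholipids and is encoded by Prdx6 (chromosome 1, 161240112 to 161251219, mm10), ran the other way, at 37.2, 35.7 and 32.3 in the libraries labelled Atg5 KO, against 48.9, 60.7 and 41.4 in those labelled Atg5 WT. Every library labelled Atg5 KO was below every library labelled Atg5 WT, with a difference of -0.50 and an SE of 0.16 (adjusted p = 0.492 by limma-trend). With the tumour-cell score in the fit the differences were 0.45 for Prdx5 and -0.31 for Prdx6. Prdx1, a cytosolic peroxiredoxin, was among the most abundant of the 32 genes and varied little, at 241, 256 and 263 in the libraries labelled Atg5 KO, against 237, 208 and 241 in those labelled Atg5 WT.

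The reductases that recharge thioredoxin differed from each other. Txnrd1 (chromosome 10, 82859206 to 82897724, mm10), the cytosolic selenoenzyme, had FPKM values of 67.6, 114 and 63.2 in the libraries labelled Atg5 KO, against 111, 81.4 and 124 in those labelled Atg5 WT. The groups overlapped, with Atg5 KO replicate 2 among the high libraries, and the difference was -0.40 with an SE of 0.28 (adjusted p = 0.545 by limma-trend). Txnrd2 (chromosome 16, 18426417 to 18479073, mm10), its mitochondrial counterpart, had 8.21, 8.91 and 9.86 in the libraries labelled Atg5 KO, against 8.04, 7.15 and 7.58 in those labelled Atg5 WT. These groups did not overlap, by a margin smaller than the spread within either group, and the difference was 0.22 with an SE of 0.11 (adjusted p = 0.506 by limma-trend). Thioredoxin itself, Txn1, stood at 279, 222 and 293 in the libraries labelled Atg5 KO, against 227, 215 and 218 in those labelled Atg5 WT, high in Atg5 KO replicates 1 and 3 and level elsewhere. Srxn1, which encodes the sulfiredoxin that restores overoxidised peroxiredoxins, followed the order of Nfe2l2 with 23.0, 34.1 and 24.3 in the libraries labelled Atg5 KO, against 28.1, 21.6 and 37.5 in those labelled Atg5 WT.

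Enzymes that make NADPH, the reductant of both systems, included the largest positive difference of the 32 genes. G6pdx (chromosome X, 74409483 to 74429194, mm10) encodes glucose-6-phosphate dehydrogenase, which commits glucose to the pentose phosphate pathway. Its FPKM values were 42.3, 38.9 and 50.5 in the libraries labelled Atg5 KO, against 29.8, 23.1 and 35.6 in those labelled Atg5 WT. The groups did not overlap, and the mean was 1.49-fold as high with the Atg5 KO label. Its log2 difference came to 0.57 (SE 0.19), with an adjusted p of 0.492 by limma-trend and an exact permutation p of 0.1, the lowest that 3 against 3 allow. It was 0.38 with the tumour-cell score in the fit and 0.41 without Atg5 WT replicate 2. Taldo1, the transaldolase gene of the non-oxidative branch (chromosome 7, 141392199 to 141402968, mm10), had 269, 256 and 289.7 in the libraries labelled Atg5 KO, against 233, 230.0 and 230.4 in those labelled Atg5 WT. The Atg5 WT values lay close together and every Atg5 KO value was above them, with a difference of 0.23 and an SE of 0.10 (adjusted p = 0.492 by limma-trend). Pgd, the next oxidative enzyme after G6pdx, averaged 64.6 ± 3.13 in the libraries labelled Atg5 KO and 61.8 ± 3.24 in those labelled Atg5 WT. Tkt, the transketolase gene, was highest in Atg5 WT replicate 2, at 84.97, 69.7 and 70.6 in the libraries labelled Atg5 KO, against 89.1, 117 and 69.8 in those labelled Atg5 WT, and its difference of -0.26 was -0.003 with the tumour-cell score in the fit. Malic enzyme gene Me1 is described below with the genes that followed the tumour-cell score.

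Among enzymes that remove superoxide and peroxide, Gpx1 (chromosome 9, 108339080 to 108340338, mm10), a glutathione peroxidase with selenocysteine in its active site, was the most abundant of the 32 genes and ranked 99 among all genes tested. It stood at 733, 799 and 862 in the libraries labelled Atg5 KO, against 613, 499 and 671 in those labelled Atg5 WT. The groups did not overlap, and the difference was 0.43 with an SE of 0.16 (adjusted p = 0.492 by limma-trend). With the tumour-cell score in the fit it was 0.28 with an SE of 0.12. Gpx4 (chromosome 10, 80047166 to 80056439, mm10), the selenoenzyme that reduces lipid peroxides and holds back ferroptosis, did not share that order. It had 184, 171 and 154 in the libraries labelled Atg5 KO, against 193, 252 and 143 in those labelled Atg5 WT, with the top 2 values in libraries labelled Atg5 WT and the lowest one too. Its difference was -0.17 with an SE of 0.22 (adjusted p = 0.69 by limma-trend), and 0.10 with the tumour-cell score in the fit. Cat, the peroxisomal catalase gene, had 61.3, 53.7 and 60.4 in the libraries labelled Atg5 KO, against 48.2, 55.6 and 42.3 in those labelled Atg5 WT. Its groups overlapped through Atg5 WT replicate 2 alone, and the difference of 0.26 had an SE of 0.13 (adjusted p = 0.501 by limma-trend). The superoxide dismutases were nearly flat. Cytosolic Sod1 averaged 162 ± 7.88 in the libraries labelled Atg5 KO and 170.3 ± 16.6 in those labelled Atg5 WT, and mitochondrial Sod2 34.0 ± 1.59 in the libraries labelled Atg5 KO and 35.4 ± 2.43 in those labelled Atg5 WT.

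**Figure D2:**
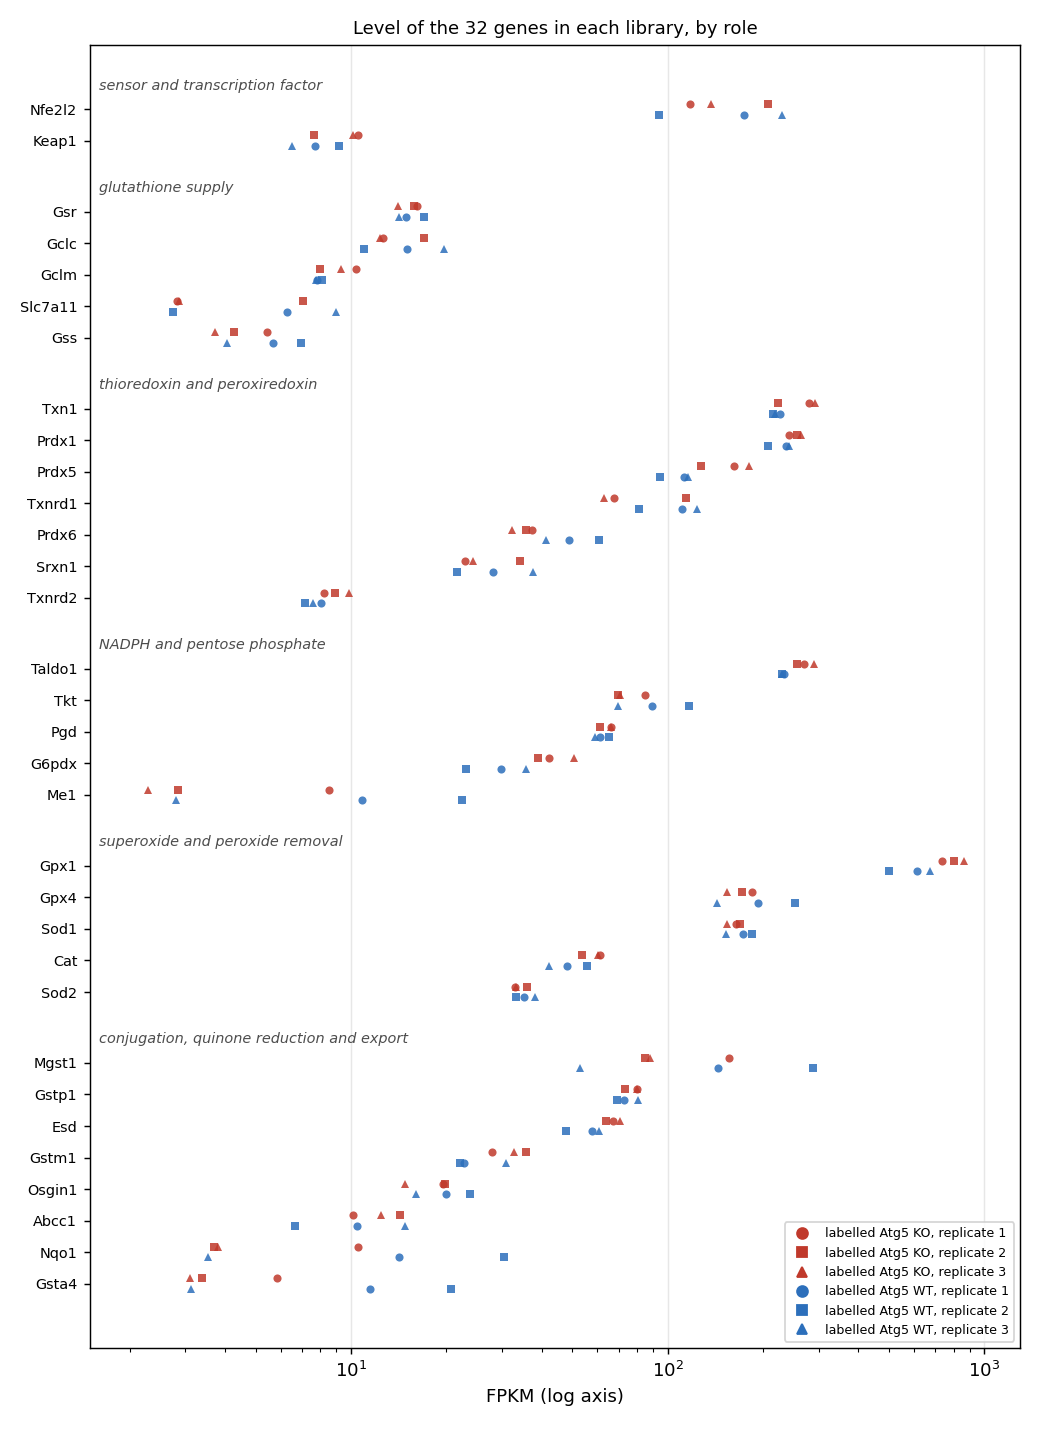
FPKM of the 32 genes on a log axis, by role, with 1 point per library, red for libraries labelled Atg5 KO (upper row of each gene) and blue for those labelled Atg5 WT (lower row), and the shape giving the replicate. Gpx1 lies to the right of all others, between 499 and 862, while Me1, Nqo1, Gsta4 and Mgst1 spread most over the libraries.

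Among genes of conjugation, quinone reduction and export, Nqo1, Gsta4 and Mgst1 spread widely over the libraries, as did Me1 of the NADPH group. Nqo1 (chromosome 8, 107388225 to 107403206, mm10), which encodes the quinone reductase often used as a marker of NRF2 activity, had FPKM values of 10.52, 3.70 and 3.82 in the libraries labelled Atg5 KO, against 14.2, 30.5 and 3.53 in those labelled Atg5 WT. The lowest and the highest library both carried the Atg5 WT label, 8.64-fold apart. Me1 (chromosome 9, 86581371 to 86695953, mm10), which makes NADPH from malate, had 8.55, 2.84 and 2.29 in the libraries labelled Atg5 KO, against 10.8, 22.4 and 2.80 in those labelled Atg5 WT. Gsta4 (chromosome 9, 78191966 to 78209348, mm10), a glutathione transferase for lipid aldehydes, had 5.82, 3.38 and 3.10 in the libraries labelled Atg5 KO, against 11.5, 20.7 and 3.12 in those labelled Atg5 WT. Mgst1 (chromosome 6, 138140316 to 138156755, mm10), a membrane glutathione transferase and peroxidase, had 156, 85.01 and 88.2 in the libraries labelled Atg5 KO, against 145, 287 and 52.7 in those labelled Atg5 WT. In all 4 genes the libraries Atg5 WT replicate 2, Atg5 WT replicate 1 and Atg5 KO replicate 1 were the 3 highest. These are also the 3 with the highest tumour-cell scores. The mean log2(FPKM + 1) of the neutrophil markers was highest in the same 3, at 3.72, 3.12 and 3.05. That of the macrophage markers was lowest there, at 6.75, 7.99 and 8.33. Over all 6 libraries the neutrophil mean kept the order of the tumour-cell score and the macrophage mean reversed it. These 3 scores cannot be told apart here. Over all genes tested, 54.1% were highest in Atg5 WT replicate 2. All 23 markers behind the tumour-cell score were lower on average with the Atg5 KO label, by a median of -1.28 on the log2 scale. Of the 23, 0 had groups that did not overlap. The differences on the group alone were -1.02, -1.04, -1.06 and -0.30, with SEs of 0.76, 0.75, 0.62 and 0.63. Leaving out Atg5 WT replicate 2 gave -0.38, -0.44, -0.53 and 0.27, and leaving out Atg5 WT replicate 3 gave -1.78, -1.75, -1.73 and -0.94 for the same genes. The limma-trend adjusted p over the 6 libraries was 0.554 for Nqo1, 0.548 for Me1, 0.525 for Gsta4 and 0.813 for Mgst1. With the tumour-cell score in the fit the differences were 0.051, 0.023, -0.21 and 0.57, with SEs of 0.18, 0.12, 0.20 and 0.20. The sign changed in 3 of the 4, but the values for Nqo1 and Me1 were smaller than their SEs. The 3 libraries with scores of 4.15 or below include only 1 labelled Atg5 WT. There Nqo1 stood at 3.70 and 3.82 with the Atg5 KO label and at 3.53 with the Atg5 WT label. Mgst1 stood at 85.01 and 88.2 with the Atg5 KO label and at 52.7 with the Atg5 WT label. The part of tumour cells in the differences of these 4 genes was not tested.

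The other genes of this role varied less. Esd (chromosome 14, 74732297 to 74750765, mm10), the esterase that frees glutathione from its formaldehyde adduct, had 67.1, 64.1 and 70.8 in the libraries labelled Atg5 KO, against 57.8, 47.6 and 60.5 in those labelled Atg5 WT, in groups that did not overlap. Its difference was 0.29 with an SE of 0.12 (adjusted p = 0.492 by limma-trend). Gstm1, a mu-class glutathione transferase, had 28.0, 35.8 and 32.8 in the libraries labelled Atg5 KO, against 22.8, 22.1 and 30.8 in those labelled Atg5 WT, with overlap through Atg5 WT replicate 3 and a difference of 0.35 (SE 0.17, limma-trend adjusted p = 0.499). Gstp1 was nearly level at 77.9 ± 3.86 in the libraries labelled Atg5 KO and 74.2 ± 5.90 in those labelled Atg5 WT. Its close paralog Gstp2 stood at a mean FPKM of 0.842, and reads of such copies can be divided between them, as can those of Gstm1 and its family. Abcc1, which exports glutathione conjugates, had 10.2, 14.3 and 12.4 in the libraries labelled Atg5 KO, against 10.4, 6.67 and 14.8 in those labelled Atg5 WT, and its difference of 0.24 was -0.11 with the tumour-cell score and -0.028 without Atg5 WT replicate 2. Osgin1, an NRF2 target linked to growth arrest, averaged 18.1 ± 2.78 in the libraries labelled Atg5 KO and 19.9 ± 3.85 in those labelled Atg5 WT.

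**Figure D3:**
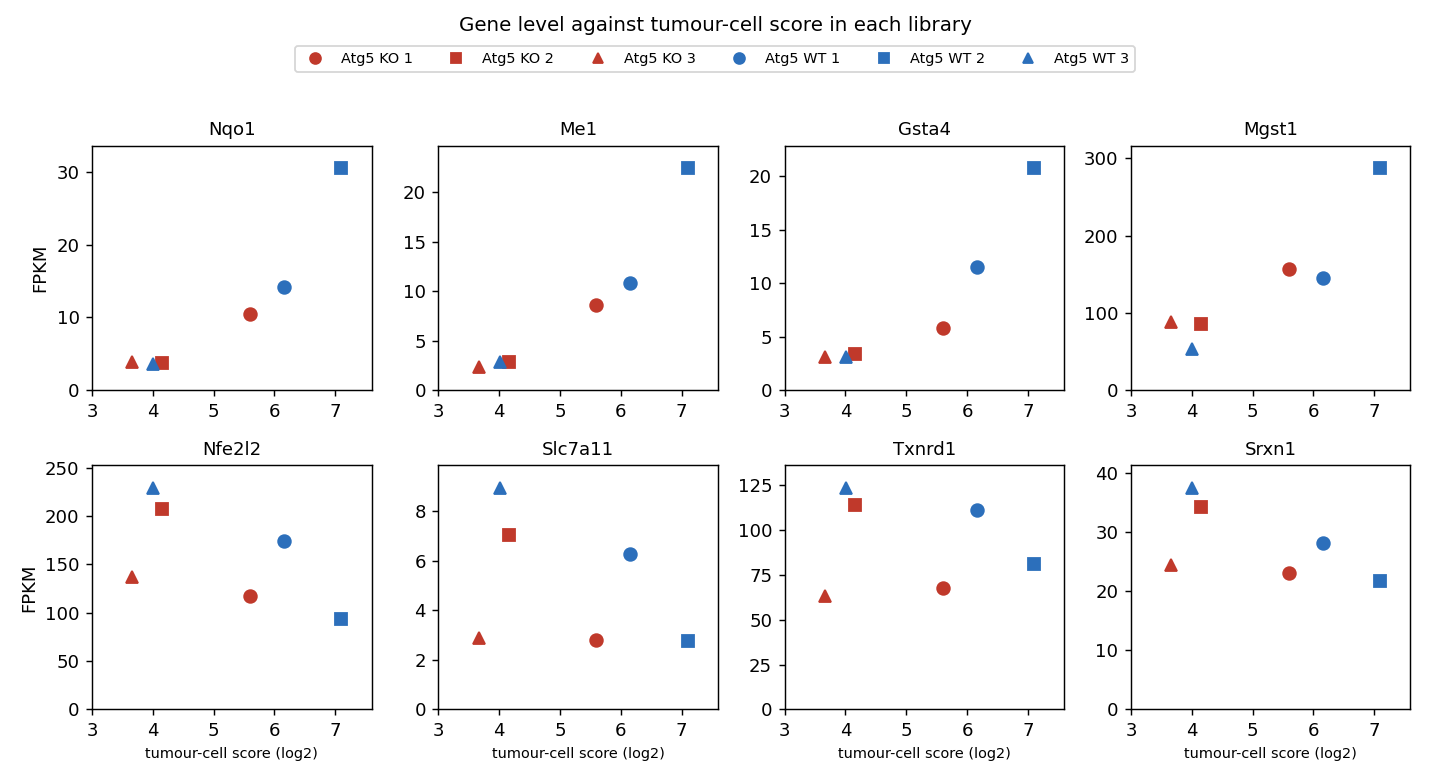
FPKM of 8 genes (vertical axes from 0) against the tumour-cell score, the mean log2(FPKM + 1) of 23 epithelial and tumour-cell markers, with 1 point per library. Nqo1, Me1 and Gsta4 are low in the 3 libraries with scores of 4.15 or below and highest at a score of 7.10, while Nfe2l2, Slc7a11, Txnrd1 and Srxn1 are highest at a score of 4.01, in Atg5 WT replicate 3.

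Read across libraries rather than groups, the 32 genes fell into unlike profiles. Atg5 WT replicate 2, which had the highest tumour-cell score, held the highest value of 11 genes (34.4%, against 54.1% of all genes tested) and the lowest value of 15 (46.9%, against 23.7%). The 11 were Nqo1, Me1, Gsta4, Mgst1, Prdx6, Tkt, Gpx4, Gss, Osgin1, Sod1 and Gsr. Atg5 KO replicate 3 held the highest value of 8 genes (25.0%, against 17.4%), namely G6pdx, Prdx5, Gpx1, Txn1, Txnrd2, Esd, Taldo1 and Prdx1. Atg5 WT replicate 3 held the highest value of another 8 (25.0%, against 12.0%), namely Slc7a11, Nfe2l2, Txnrd1, Srxn1, Gclc, Abcc1, Sod2 and Gstp1. Among these, Nfe2l2, Slc7a11, Srxn1, Gclc, Abcc1 and Gstp1 were also lowest in Atg5 WT replicate 2, a profile of 18.8% of the 32 genes and 6.59% of all genes tested. In Nfe2l2, Slc7a11, Txnrd1, Srxn1 and Gclc the 3 highest libraries were Atg5 WT replicate 3, Atg5 KO replicate 2 and Atg5 WT replicate 1, in that order. That order crosses the labels and differs from the order of the tumour-cell score. It was not particular to the pathway. Of the 19 macrophage markers, Cd14 (1977, 1599 and 1521) and Mrc1 (263, 223 and 178) had the same top 3 in the same order, and the others did not. The share of all genes tested with that order was not counted. These profiles were seen in the values and are given as a description without a test.

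**Figure D4:**
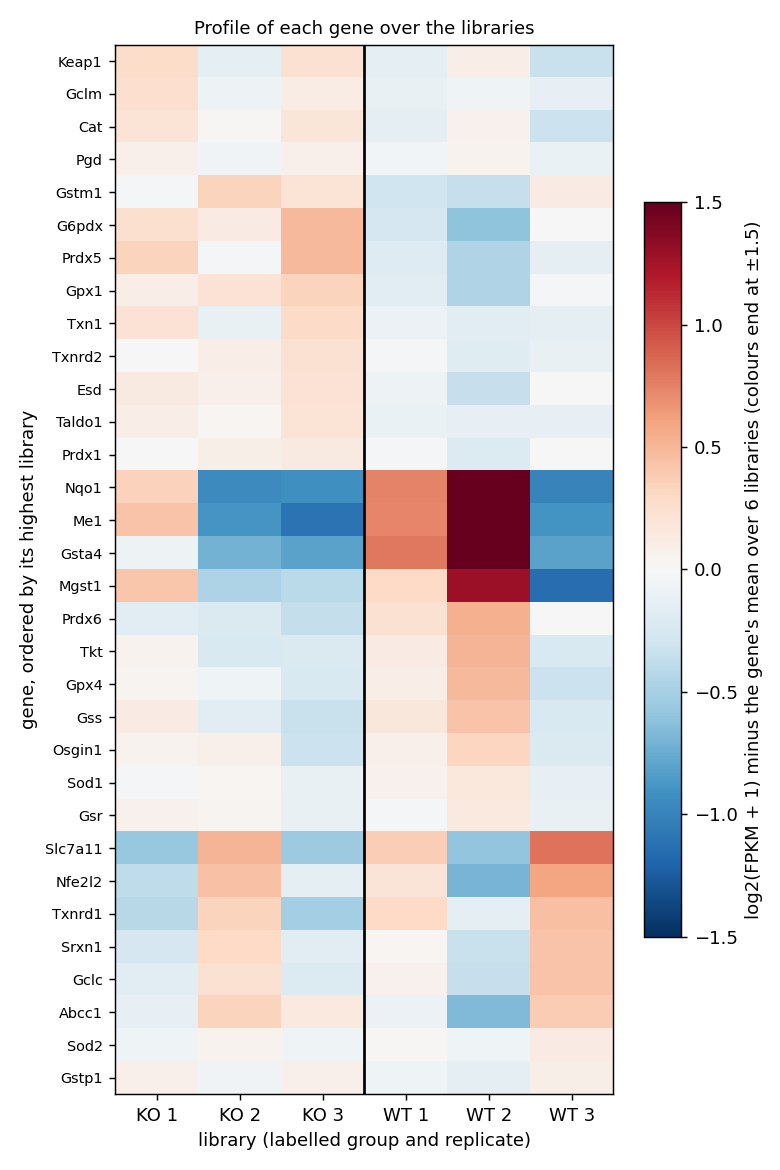
Profile of each of the 32 genes over the 6 libraries, as log2(FPKM + 1) minus the mean of that gene, with genes ordered by their highest library and colours ending at ±1.5. Nqo1, Me1, Gsta4 and Mgst1 are darkest red in WT 2, and Slc7a11, Nfe2l2, Txnrd1, Srxn1 and Gclc are red in KO 2 and WT 3 and blue in KO 1, KO 3 and WT 2.

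Further genes of the pathway, 96 in 6 lists, are given by their counts and by the few with the smallest p-values. Of the 82 that passed the filter, 33 had a positive and 49 a negative difference, with a median of -0.11, and 0 passed the test over all genes. Groups did not overlap for 7 of the 82 with a positive and 8 with a negative difference, close to the 9.20% and 9.41% of all genes tested. Among 16 regulators of NRF2 the counts were 2 positive and 14 negative, with a median of -0.22. Mafg, a small MAF partner of NRF2, had FPKM values of 18.1, 20.8 and 13.9 in the libraries labelled Atg5 KO, against 26.6, 26.5 and 26.1 in those labelled Atg5 WT, in groups that did not overlap, with a difference of -0.57 and an SE of 0.15 (adjusted p = 0.492 by limma-trend). Gsk3b, a kinase that marks NRF2 for degradation apart from KEAP1, averaged 12.9 ± 0.877 in the libraries labelled Atg5 KO and 15.1 ± 1.08 in those labelled Atg5 WT. Palb2, whose product can bind KEAP1, had 1.89 ± 0.262 in the libraries labelled Atg5 KO and 1.20 ± 0.116 in those labelled Atg5 WT, and Nfe2l1, a relative of NRF2, 41.7 ± 7.15 in the libraries labelled Atg5 KO and 61.8 ± 20.8 in those labelled Atg5 WT. Sqstm1, the p62 gene, had 297, 502 and 280.1 in the libraries labelled Atg5 KO, against 495, 325 and 597 in those labelled Atg5 WT. Its 3 highest libraries and their order were those of Nfe2l2, and its difference was -0.40 with an SE of 0.32 (adjusted p = 0.569 by limma-trend). Bach1, which represses NRF2 targets when heme is low, and Slc3a2, the partner chain of the cystine importer, were picked after their values were seen and had the same top 3. Bach1 stood at 33.5, 64.7 and 38.0 in the libraries labelled Atg5 KO, against 53.7, 27.5 and 70.9 in those labelled Atg5 WT, and Slc3a2 at 138, 203 and 139.6 in the libraries labelled Atg5 KO, against 199.6, 144 and 231 in those labelled Atg5 WT.

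Further NRF2 targets counted 12 positive and 12 negative differences among the 24 of 35 that passed the filter. Hmox1, the heme oxygenase gene, had 269, 366 and 321 in the libraries labelled Atg5 KO, against 364, 147 and 510.0 in those labelled Atg5 WT, highest in Atg5 WT replicate 3 and lowest in Atg5 WT replicate 2 as for Nfe2l2. Blvrb, which reduces biliverdin and flavins, had 112, 120.2 and 144 in the libraries labelled Atg5 KO, against 65.9, 39.2 and 90.0 in those labelled Atg5 WT. Those groups did not overlap, and the difference was 1.01 with an SE of 0.31 (adjusted p = 0.492 by limma-trend), and 0.69 without Atg5 WT replicate 2. Cbr3, a carbonyl reductase gene, had 16.8, 18.8 and 20.7 in the libraries labelled Atg5 KO, against 9.73, 7.17 and 13.6 in those labelled Atg5 WT, with a difference of 0.86 and an SE of 0.23 (adjusted p = 0.492 by limma-trend). Akr1b8, an aldo-keto reductase gene, lay lower with the Atg5 KO label in every library, at 2.25 ± 0.429 in the libraries labelled Atg5 KO and 4.23 ± 1.63 in those labelled Atg5 WT, and Gstm4 lay higher in every library, at 5.97 ± 0.54 in the libraries labelled Atg5 KO and 4.66 ± 0.809 in those labelled Atg5 WT, without passing. Among 20 other thioredoxin, peroxidase and repair genes, 9 were positive and 11 negative. Msrb1, a selenoenzyme that repairs oxidised methionine, had 177, 171 and 196 in the libraries labelled Atg5 KO, against 142, 136 and 144 in those labelled Atg5 WT, in groups that did not overlap, with a difference of 0.36 and an SE of 0.10 (adjusted p = 0.492 by limma-trend). Gpx3, a secreted peroxidase, averaged 54.9 ± 10.7 in the libraries labelled Atg5 KO and 39.3 ± 6.64 in those labelled Atg5 WT, and Gpx8, a peroxidase of the endoplasmic reticulum, 0.758 ± 0.312 in the libraries labelled Atg5 KO and 3.18 ± 2.42 in those labelled Atg5 WT. Of 8 further NADPH and pentose phosphate genes 5 were positive. Idh1, which had the smallest p of them, averaged 38.9 ± 2.76 in the libraries labelled Atg5 KO and 34.6 ± 1.78 in those labelled Atg5 WT. Glutathione turnover gave 2 positive and 6 negative among 8 of 11, and selenoprotein synthesis 3 and 3 among 6.

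Shared exons limit some of these values, because whether the counting used strand is not known here. By GENCODE release M21, Prdx5 shares 409 exon bases (22.4% of its gene length) with Trmt112 on the opposite strand, and G6pdx 418 (15.8%) with Ikbkg. Trmt112 averaged 52.5 ± 2.60 FPKM in the libraries labelled Atg5 KO and 49.2 ± 5.33 in those labelled Atg5 WT. Ikbkg averaged 4.87 ± 0.520 with the Atg5 KO label and 4.95 ± 1.37 with the Atg5 WT label. The part of these neighbours in the values of Prdx5 and G6pdx was not tested. Recovered reads of the 32 genes ran from 56 for Gsta4 in Atg5 WT replicate 3 to 17853 for Gpx1 in Atg5 KO replicate 3. Macrophage markers moved with the positive differences: 18 of 19 were higher on average with the Atg5 KO label, with a median difference of 0.83. Only 4 of the 19 had groups that did not overlap. Their summed FPKM ran from 34421 to 42265 in the libraries labelled Atg5 KO and from 9545 to 31723 in those labelled Atg5 WT. Most of that sum was Apoe, at 23899.5, 23507.1 and 28905.5 in the libraries labelled Atg5 KO, against 14365.9, 5982.22 and 19349.2 in those labelled Atg5 WT. The mean log2(FPKM + 1) of the macrophage markers overlapped between the groups, with Atg5 WT replicate 3 above Atg5 KO replicates 1 and 2. The part of macrophage markers in the differences of G6pdx, Prdx5 and Gpx1 was not tested. Fibroblast and endothelial markers moved with the negative ones, with all 15 and all 12 lower on average and summed FPKM of 240.2 to 513 and 19.7 to 39.95 with the Atg5 KO label, against 619 to 1804 and 46.8 to 145 with the Atg5 WT label. No such marker was at 0 throughout, and their part in the difference of Prdx6 was not tested. Of the markers that passed the filter, 2 of 7 for neutrophils, 2 of 4 for T and NK cells, 2 of 6 for B and plasma cells, 2 of 7 for mast cells and eosinophils and 2 of 7 for dendritic cells were higher on average with the Atg5 KO label.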

How the data were processed

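RNA of sorted tumour macrophages from 6 mice was sequenced, 3 labelled Atg5 KO and 3 labelled Atg5 WT, and per the labels' protocols libraries were made with a NEBNext Ultra RNA kit. The authors deposited FPKM values for 35275 genes in 1 column per mouse. Per the submitters' processing notes, which give no versions, CASAVA, STAR and mm10 were used; the counter, strand setting and annotation release were not given in the sources used here. FPKM times gene length gave whole reads, within 0.01 read, for 100% of values in every library. Those recovered reads served limma-voom, an alternative.

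The test was limma-trend on log2(FPKM + 1) (limma 3.58.1, R 4.3.3) with the group as the only term, for genes whose mean FPKM was 1 or more, two-sided, with Benjamini-Hochberg adjustment over all genes tested and a threshold of 0.05. Log2 differences understate the change of low genes. Means are ± SD over 3 libraries; SE comes from the fit. The p-values measure the spread between these mice.

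The 32 genes, their roles, the further pathway lists and the marker lists were chosen with earlier results of these data known. Values in every library are given for genes whose groups did not overlap or with an unadjusted p under 0.05, the most abundant of each role, and Nfe2l2, Keap1, Nqo1, Gclm, Slc7a11 and Gpx4, with others, and the 6 promoter stretches, added for their profiles after their values were seen. From the further lists, up to 4 genes of smallest p, Hmox1 and Sqstm1 were eligible. Some overlaps between genes are not reported here. Scripts were tested on simulated data. Alternatives numbered 17.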

Additional observations from a re-analysis of the deposited data

How the results depend on the processing

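Across 17 alternatives, 0 of the 32 genes passed the test over all genes in any. Over all genes the number lower with the Atg5 KO label was 0 with no filter on low values, with median-ratio scaling and with the replicate block, ranged from 0 to 16 when each library was left out in turn, and the number higher ranged from 0 to 2; the highest counts came without Atg5 WT replicate 2. With 1 library left out, the count of the 32 whose groups did not overlap could only stay or rise. For these 32 it ranged from 6 to 11 on the higher and 1 to 9 on the lower side. Their median was 0.0745 once the fit held the tumour-cell score, and from -0.0583 to 0.104 with 1 library left out, highest without Atg5 WT replicate 3. Same-numbered mice did not deviate together throughout, with correlations of 0.2116, -0.3757 and 0.5902 for numbers 1, 2 and 3. Atg5 KO replicate 1 with Atg5 WT replicate 2 gave 0.7276. These values do not settle whether mice were paired by number. The replicate block gave 0 genes lower over all genes and a median of -0.0288. Signs turned for 13 of the 32 genes under at least 1 alternative. With median-ratio scaling Nfe2l2 was 0.0345, Gsr 0.0838, Srxn1 0.0064, Sod1 0.0278 and Sod2 0.0349. With quantile normalization Gclc was 0.0249 and Gsr 0.0928. With the tumour-cell score Gss was 0.0206, Gsr 0.0927, Me1 0.0228, Sod1 0.029, Gpx4 0.0995, Nqo1 0.0513, Osgin1 0.0775, Mgst1 0.5683 and Abcc1 -0.1116. With 1 library left out the ranges were -0.4174 to 0.2222 for Nfe2l2, -0.27 to 0.1132 for Srxn1, -0.0575 to 0.069 for Gsr, -0.293 to 0.0951 for Gclc, -0.379 to 0.0257 for Gpx4, -0.266 to 0.002 for Osgin1, -0.944 to 0.2682 for Mgst1 and -0.0275 to 0.494 for Abcc1, and, with no change of sign, -0.791 to -0.086 for Slc7a11, -1.78 to -0.379 for Nqo1, -1.75 to -0.438 for Me1, -1.73 to -0.528 for Gsta4, -0.661 to -0.238 for Txnrd1, -0.443 to -0.0761 for Tkt, -0.426 to -0.1004 for Gss, 0.142 to 0.378 for Keap1, 0.169 to 0.363 for Cat and 0.182 to 0.353 for Esd. Signs held in all 17 for 19 of the 32, among them G6pdx, Prdx5, Gpx1, Esd, Taldo1, Txnrd2 and Prdx6. Those 7 are the genes whose groups did not overlap, so leaving out 1 library could not turn their sign. The cause of these changes was not tested. Depth limits Gsta4 most, at 56 reads in its lowest library.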
